A study of Rattus norvegicus with 16 samples.

Results

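The lysosome pathway genes were the rows of the deposited rat expression table annotated to the KEGG pathway Lysosome, without the cathepsins and without Npc2, Ctbs, Cd68, Acp5 and Atp6v0d2. Of 23552 rows, 122 carried the annotation, 17 were left out by that rule, and 1 lower row of a repeated symbol was dropped, which left 104 genes. The genes were measured by RNA-seq of knee cartilage from rats labelled 10 weeks old, in 16 libraries with 4 per group. The groups were osteoarthritic cartilage given coacervate, cells and drug (coacervate), osteoarthritic cartilage given hyaluronic acid, cells and drug (HA), osteoarthritic cartilage (osteoarthritic) and cartilage of healthy rats (healthy). A coacervate is a dense liquid phase that separates from a solution of polymers, and hyaluronic acid is a large sugar polymer of joint fluid and cartilage. Library names call the osteoarthritic libraries PBS and the healthy ones Sham, and the labels name neither the cells nor the drug. They also leave unsaid how osteoarthritis was brought about and whether each library is a separate animal, so every p-value measures the spread between these libraries, which may be technical.

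Lysosomes are acidic compartments in which enzymes break down material that reaches them by endocytosis, phagocytosis and autophagy. Most of the enzymes are tagged with mannose 6-phosphate in the Golgi and carried by receptors, adaptor complexes and clathrin, and a proton pump, the V-ATPase, keeps the compartment acidic. In cartilage, chondrocytes use lysosomal glycosidases and sulfatases to finish the degradation of the glycosaminoglycans that hold water in the matrix, and macrophages and osteoclasts are rich in lysosomes as well. Many lysosomal genes are regulated together by the transcription factor TFEB and its relatives, which bind a DNA element called CLEAR.

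Total counts were between 36988722 and 50725189 per library, of which the 104 genes took 0.890 to 1.25%. The chondrocyte genes Col2a1, at 169 to 593 FPKM, and Acan, at 8.14 to 38.9 FPKM, were present in all 16 libraries (FPKM, fragments scaled for transcript length and library size, allows genes of different length to be compared). Other chondrocyte markers were low, with Sox9 at 0.54 to 3.43 FPKM, Matn1 at 0 in 2 libraries and Epyc at 0 in 1. Markers of other cells were abundant, such as the muscle gene Acta1 (418 to 3370 FPKM) and the macrophage marker Lyz2 (2776 to 6734 FPKM). Transcripts of blood cells were also present, since haemoglobin genes took 9.57 to 20.6% of counts. Other erythroid, neutrophil and B cell markers were present too, with Klf1 at 109 to 155, Mpo at 204 to 595 and Vpreb1 at 3.56 to 23.8 FPKM. Whether these came from circulating blood or from precursor cells was not tested. On the first principal component of all tested genes, osteoarthritic replicates 2 and 3 scored 69.6 and 58.9, far from the -32.3 to 12.7 of the other libraries. The same 2 libraries had the highest scores on the first component of the lysosome genes (3.31 or more, against 0.63 or less in the rest), and that component held 41.3% of the genes' variance. Counts, medians and the fold changes of most named genes in comparisons with the osteoarthritic group are therefore also given without those replicates, and values by role without them were added after the data were seen.

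Lysosome genes were abundant. Their median level was 20.4 FPKM over the 98 tested genes (those reaching 1 FPKM in 4 or more libraries), against 8.53 FPKM over all 14337 genes tested. Of the 104, 9 averaged 100 FPKM or more, 64 lay between 10 and 100, 25 between 1 and 10, and 6 under 1. Those 6, Psapl1, Hyal6, Ap1m2, Lamp3, Ap3b2 and Atp6v0a4, did not reach the filter and were not tested. The highest level, 506 FPKM, belonged to Psap, the precursor of the saposins that help hydrolases reach sphingolipids. It was followed by Atp6v0c, the proton-carrying ring subunit of the V-ATPase (241 FPKM), by Gm2a, which presents GM2 ganglioside to beta-hexosaminidase (194 FPKM), and by Cd63, a tetraspanin of late endosomes and lysosomes (190.4 FPKM). Laptm5, a lysosomal membrane protein of blood cells, averaged 149 FPKM. Clta, a clathrin light chain, averaged 107 FPKM, Laptm4a 101 FPKM and the alpha-mannosidase Man2b1 93.5 FPKM.

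**Figure D1:**
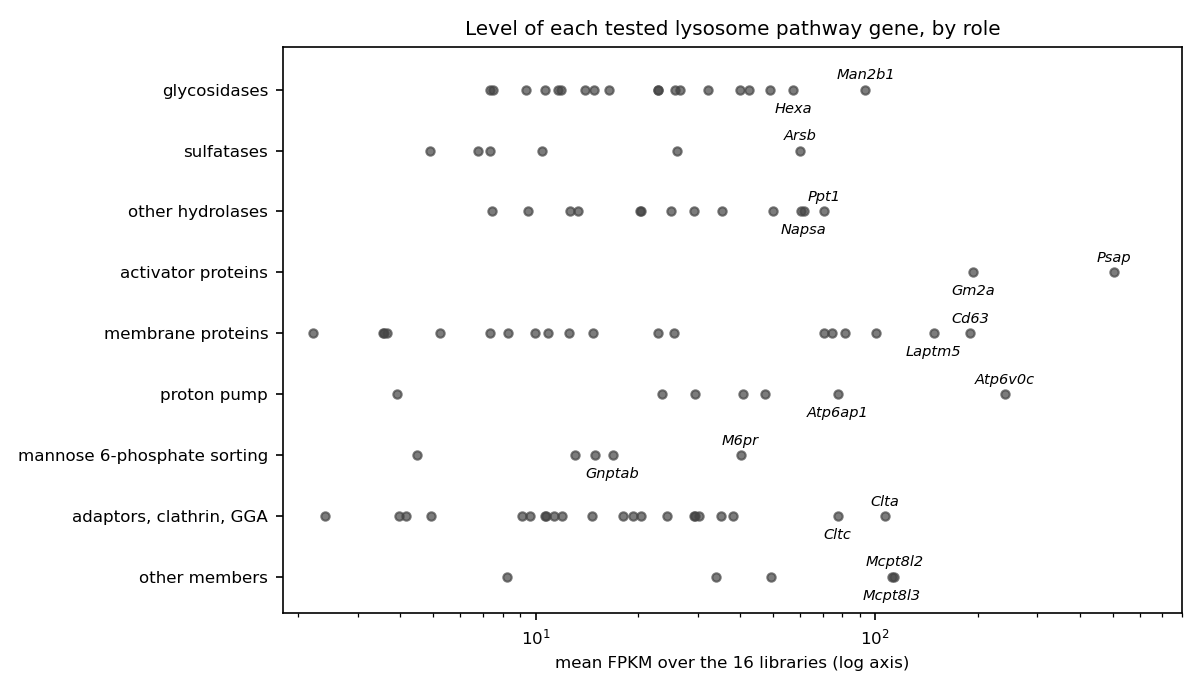
Mean level of each of the 98 tested lysosome genes over the 16 libraries, in FPKM on a logarithmic axis, by role; each dot is 1 gene, and 1 or 2 of the highest in each role are named. Psap, at 506 FPKM, lies farthest right, and the membrane proteins run from Abcb9 at 2.22 FPKM to Cd63 at 190.4 FPKM.

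Mcpt8l2 and Mcpt8l3, at 114 and 112 FPKM, are annotated to the pathway but are named as mast cell proteases and resemble each other, so reads could be split between them. The same doubt holds for M6pr, the cation-dependent mannose 6-phosphate receptor, which the table places at chrX:88312675-88321834 in genome build rn6, and LOC100909548, described in the table as a receptor like it, at chr4:155088317-155092827.

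The promoter around the gene start could be read for 85 of the 104 genes, from RefSeq promoters of build GRCr8 (250 bases before to 50 after the start). They were searched on both strands for the core of the CLEAR element, CACGTG, for TCACGTG, and for a 10-letter palindrome in which GT precedes and AC follows the core. Each contains the one before it. The core was in the window of 16 of the 85 genes (18.8%), against 1826 of all 27457 promoters (6.65%). TCACGTG was in 14 (16.5%, against 3.43% of all promoters), and the palindrome in 3, Igf2r, Galc and Sumf1 (3.53%, against 0.277%). At least 2 cores were found in 5 genes, Lamp1, Cln3, Igf2r, Mcoln1 and Nagpa (5.88%, against 0.554%). By role, the core was found in 3 of the 4 windows read for mannose 6-phosphate sorting, 5 of 18 for membrane proteins, 4 of 15 for glycosidases, and none of 8 for the other hydrolases. A match describes these letters in this window and is not evidence of binding. The promoters of 5 genes on which the results below turn are printed 5′ to 3′ on the gene's strand, with every core in capitals. Lamp1, a heavily glycosylated protein of the lysosomal membrane, holds 5 cores (chr16:83075014-83075313, minus strand). Mcoln1, a calcium channel of that membrane, holds 2 (chr12:6358008-6358307, plus strand), as does Igf2r, the large mannose 6-phosphate receptor (chr1:50526628-50526927, plus strand), in which both cores lie inside the palindrome. Cd63 holds 1 core (chr7:1921894-1922193, plus strand), and Gm2a, shown because it differed as much between the groups, has none in this window (chr10:39719669-39719968, plus strand).
Lamp1: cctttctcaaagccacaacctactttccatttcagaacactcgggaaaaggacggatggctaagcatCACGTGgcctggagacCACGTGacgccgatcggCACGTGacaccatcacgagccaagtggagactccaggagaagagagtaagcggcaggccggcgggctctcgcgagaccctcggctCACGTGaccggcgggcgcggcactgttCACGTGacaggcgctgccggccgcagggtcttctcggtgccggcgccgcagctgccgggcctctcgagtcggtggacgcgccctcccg
Mcoln1: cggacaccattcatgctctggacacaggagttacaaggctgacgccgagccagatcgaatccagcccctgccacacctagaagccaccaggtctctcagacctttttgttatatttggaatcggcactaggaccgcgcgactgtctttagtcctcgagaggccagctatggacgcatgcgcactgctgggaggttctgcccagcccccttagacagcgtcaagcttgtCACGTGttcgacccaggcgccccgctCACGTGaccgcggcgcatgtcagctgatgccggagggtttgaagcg
Igf2r: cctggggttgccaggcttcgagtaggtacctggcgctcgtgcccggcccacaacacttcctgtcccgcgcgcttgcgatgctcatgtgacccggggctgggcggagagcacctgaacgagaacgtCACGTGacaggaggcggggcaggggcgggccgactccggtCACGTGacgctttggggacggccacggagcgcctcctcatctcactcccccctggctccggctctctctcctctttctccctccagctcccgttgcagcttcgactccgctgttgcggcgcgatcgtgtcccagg
Cd63: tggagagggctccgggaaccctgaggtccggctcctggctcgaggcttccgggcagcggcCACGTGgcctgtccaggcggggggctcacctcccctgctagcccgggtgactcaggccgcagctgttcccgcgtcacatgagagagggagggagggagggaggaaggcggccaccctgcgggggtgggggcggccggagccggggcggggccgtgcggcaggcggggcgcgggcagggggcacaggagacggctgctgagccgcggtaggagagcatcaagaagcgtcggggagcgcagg
Gm2a: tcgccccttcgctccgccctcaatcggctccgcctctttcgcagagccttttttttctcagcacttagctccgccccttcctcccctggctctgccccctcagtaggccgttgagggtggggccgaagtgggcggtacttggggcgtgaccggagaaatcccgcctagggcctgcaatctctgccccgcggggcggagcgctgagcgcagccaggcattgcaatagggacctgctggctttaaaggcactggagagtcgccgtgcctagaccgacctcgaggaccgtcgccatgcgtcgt

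**Figure D2:**
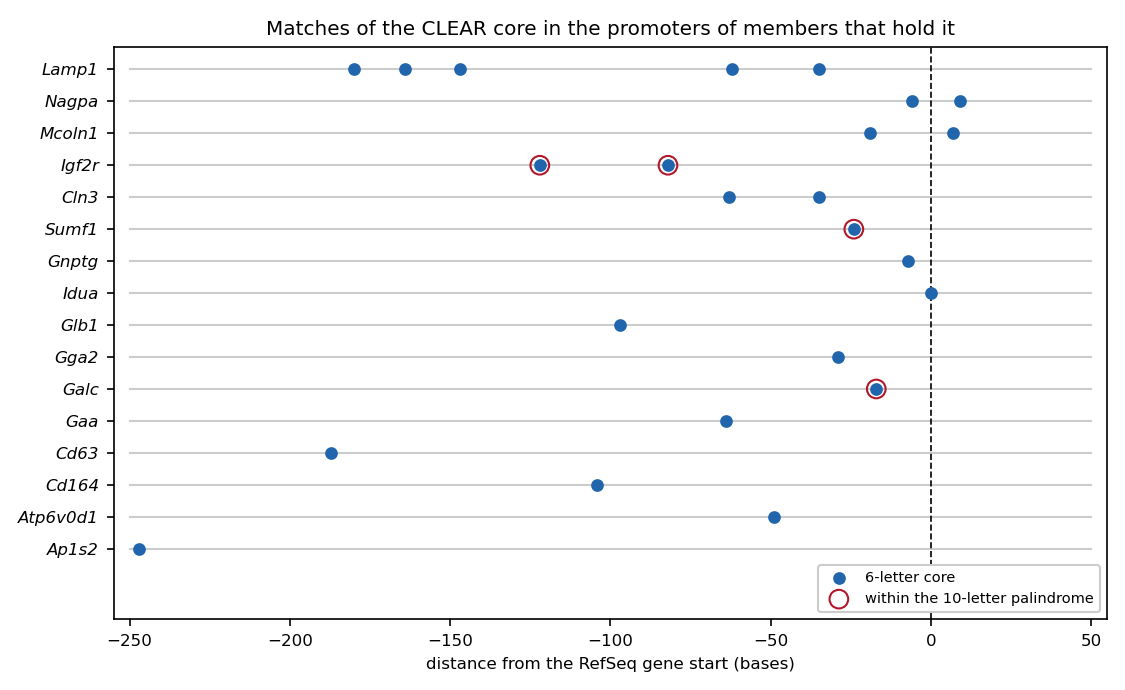
Position of each CLEAR core in the 16 lysosome gene promoters that hold it, in bases from the RefSeq gene start (dashed line); open red circles mark cores inside the longer palindrome. Lamp1 has 5 cores, the other genes 1 or 2.

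Osteoarthritic against healthy cartilage asks how the pathway differs in disease. Relative to all genes, several genes of lysosomal membranes and enzymes had higher normalised counts in osteoarthritic cartilage, with log2 fold changes of up to 0.55 (Lgmn), but none passed the test across all genes. With edgeR's quasi-likelihood test and Benjamini-Hochberg adjustment over 14337 genes, 0 of the 98 lysosome genes had an adjusted p of at most 0.05, while 72 of all genes did (0.502%, of which 0.391% were higher and 0.112% lower). An unadjusted p under 0.05 was reached by 15 lysosome genes, all of them higher in osteoarthritic cartilage (15.3%, against 17.8% of all genes in either direction, 10.9% higher and 6.91% lower). The 4 osteoarthritic libraries lay wholly above the 4 healthy ones for 10 genes (10.2%, against 3.14% of all genes) and wholly below for 0 (against 3.19%). On deposited FPKM, a count added after the data were seen, 3 were wholly above (3.06%, against 1.6% of all genes) and 0 wholly below (against 4.02%). The median log2 fold change was 0.07, against 0.01 over all genes, but it was -0.06, against -0.11 over all genes, with limma on log2(FPKM + 1), so its sign depended on the scale and its place above the median of all genes did not. On the main scale 68 of 98 genes were on the higher side (69.4%, against 52.1%).

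Hexa, the alpha subunit of beta-hexosaminidase, which trims amino sugars from glycosaminoglycans and gangliosides, had the smallest p. Levels here are normalised counts in CPM, scaled to library size but not to length, in the order of replicates 1 to 4. The scaling factors were 0.838 and 0.877 for osteoarthritic replicates 2 and 3, and 0.976 to 1.07 for the other libraries. A smaller factor raises a library's CPM. Overlap of single genes, here and below, is judged in CPM. In comparisons with the osteoarthritic group fewer genes were separate on FPKM, and which ones is not listed. Hexa lies at chr8:64325435-64350773 (rn6) and had 126, 139, 146 and 132 CPM in the osteoarthritic libraries, against 105, 102, 104 and 110.4 in healthy libraries. Its log2 fold change was 0.37 ± 0.08 (SE, here and below) and its adjusted p 0.0579, and the groups did not overlap. Lamp1 (rn6 chr16:81689335-81714346) had 382, 474, 430.0 and 462 CPM in the osteoarthritic libraries, against 348, 353, 329 and 326 in healthy libraries, without overlap (0.36 ± 0.09, adjusted p = 0.0756). Mcoln1 had 21.7, 22.8, 21.8 and 23.4 CPM in the osteoarthritic libraries, against 16.9, 16.5, 19.6 and 17.2 in healthy libraries, again without overlap (0.35 ± 0.09, adjusted p = 0.0956).

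Lgmn, an asparaginyl endopeptidase, had 160.4, 158, 146 and 180.4 CPM in the osteoarthritic libraries, against 143, 100.3, 93.6 and 104 in healthy libraries. The lowest osteoarthritic library was just above healthy replicate 1, which stood above the other healthy libraries (0.55 ± 0.14, adjusted p = 0.0999). Lipa, the acid lipase that frees cholesterol from its esters, had 91.9, 71.5, 79.1 and 101 CPM in the osteoarthritic libraries, against 62.5, 71.4, 62.4 and 52.8 in healthy libraries (0.46 ± 0.14, adjusted p = 0.167), with osteoarthritic replicate 2 close to the highest healthy library. Gm2a (rn6 chr10:40438356-40450930) had 526, 492, 419 and 654 CPM in the osteoarthritic libraries, against 355, 420.1, 347 and 319 in healthy libraries, with a difference of 0.54 ± 0.14 on the log2 scale (adjusted p = 0.0999), and osteoarthritic replicate 3 was just below healthy replicate 2. For Cd63 (rn6 chr7:3320103-3335582), with 243, 365, 311 and 252 CPM in the osteoarthritic libraries, against 213, 219.9, 202 and 223 in healthy libraries, the groups were separate and osteoarthritic replicate 2 was the highest (0.45 ± 0.12, adjusted p = 0.128). Dnase2, the acid nuclease that digests DNA of engulfed cells, had 43.4, 61.2, 57.3 and 44.8 CPM in the osteoarthritic libraries, against 43.2, 36.7, 30.4 and 38.0 in healthy libraries (0.48 ± 0.14, adjusted p = 0.148). The lowest osteoarthritic library was barely above the highest healthy one. On the lower side, the 4 smallest p were those of the Golgi adaptors Gga3 (-0.25 ± 0.12) and Gga2 (-0.16 ± 0.09), the sorting receptor Sort1 (-0.25 ± 0.14) and the adaptor subunit Ap3b1 (-0.19 ± 0.13), with adjusted p between 0.293 and 0.428. These 4 differences were closer to 0 without osteoarthritic replicates 2 and 3, at -0.06 ± 0.11 for Gga3, -0.08 ± 0.11 for Gga2 and -0.01 ± 0.13 for Sort1, and that of Ap3b1 turned sign, at 0.07 ± 0.08.

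The count of calls depended on single libraries. Without osteoarthritic replicate 1, 10 lysosome genes passed, against 1122 of all genes (7.83%), and 27 had an unadjusted p under 0.05 (27.6%, against 30.2% of all genes). Without osteoarthritic replicate 4 the counts were 0 and 24 (24.5%, against 26.8%), and without healthy replicate 1 they were 1 and 12 (12.2%, against 12.7%). At the unadjusted threshold the share of lysosome genes was below that of all genes in each of these 3 fits. It was above that of all genes without osteoarthritic replicate 2 (14.3%, against 10.4%) and without osteoarthritic replicate 3 (15.3%, against 10.9%). Without both it was above too, with 22 genes (22.4%, against 15.3%). Without osteoarthritic replicates 2 and 3, Lamp1 was at 0.31 ± 0.09, Hexa at 0.29 ± 0.08, Cd63 at 0.20 ± 0.10 and Dnase2 at 0.25 ± 0.14, so the last 2 were smaller by over 1.5 times, while Mcoln1 was at 0.36 ± 0.10, Lgmn at 0.62 ± 0.16 and Lipa at 0.63 ± 0.15. In that fit Gm2a (0.71, adjusted p = 0.024) and Igf2r (0.82, adjusted p = 0.0475) passed, against 164 of all genes (1.14%), and the median was 0.13. DESeq2 called 8 lysosome genes, against 422 of all genes (2.94%). They were Lamp1, Hexa, Mcoln1, Aga, Gm2a, Lgmn, Cd63 and Dnase2, with adjusted p from 8.0e-05 to 0.04.

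Macrophage markers went both ways, more of them higher. Of 19 tested markers (20 were listed, and Marco was at 0 in 15 of 16 libraries), 12 were above 0 and 7 below, with a median log2 fold change of 0.42. An unadjusted p under 0.05 was reached by 7 on the higher side and 1 on the lower, and Trem2 rose (2.33 ± 0.32, adjusted p = 0.0115). Without osteoarthritic replicates 2 and 3, 10 were above 0 and 9 below (median 0.14), with 7 higher and 1 lower at that threshold. The summed level of the macrophage markers was 7021 to 12878 CPM in osteoarthritic libraries and 5193 to 7388 CPM in healthy ones. Lyz2 reached 459397 counts in a library, against at most 17157 for any other macrophage marker (Itgam). The sums given for macrophage markers here and below therefore follow mainly that 1 gene. Of 9 fibroblast markers, all 9 were on the higher side, 5 at an unadjusted p under 0.05, and 2, Mfap5 and Dpt, rose. Of 10 B cell markers, 6 were lower at that threshold. Of 13 tested chondrocyte markers, 10 were on the higher side, 2 of them at that threshold (median 0.12). Without osteoarthritic replicates 2 and 3, 11 of the 13 were higher, 3 of them at it (median 0.53). Neutrophil markers were on the higher side for 9 of 10, 5 of them at that threshold (median 0.44), but for 4 of 10 without osteoarthritic replicates 2 and 3 (median -0.09). Of 10 osteoclast markers, 3 were lower at that threshold and 3 lay wholly below the healthy libraries (median -0.14), and 0 were lower at it without those replicates. The part of these cells in the lysosome values was not tested, and in these bulk samples fewer cells of a type and less RNA per cell cannot be told apart.

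**Figure D3:**
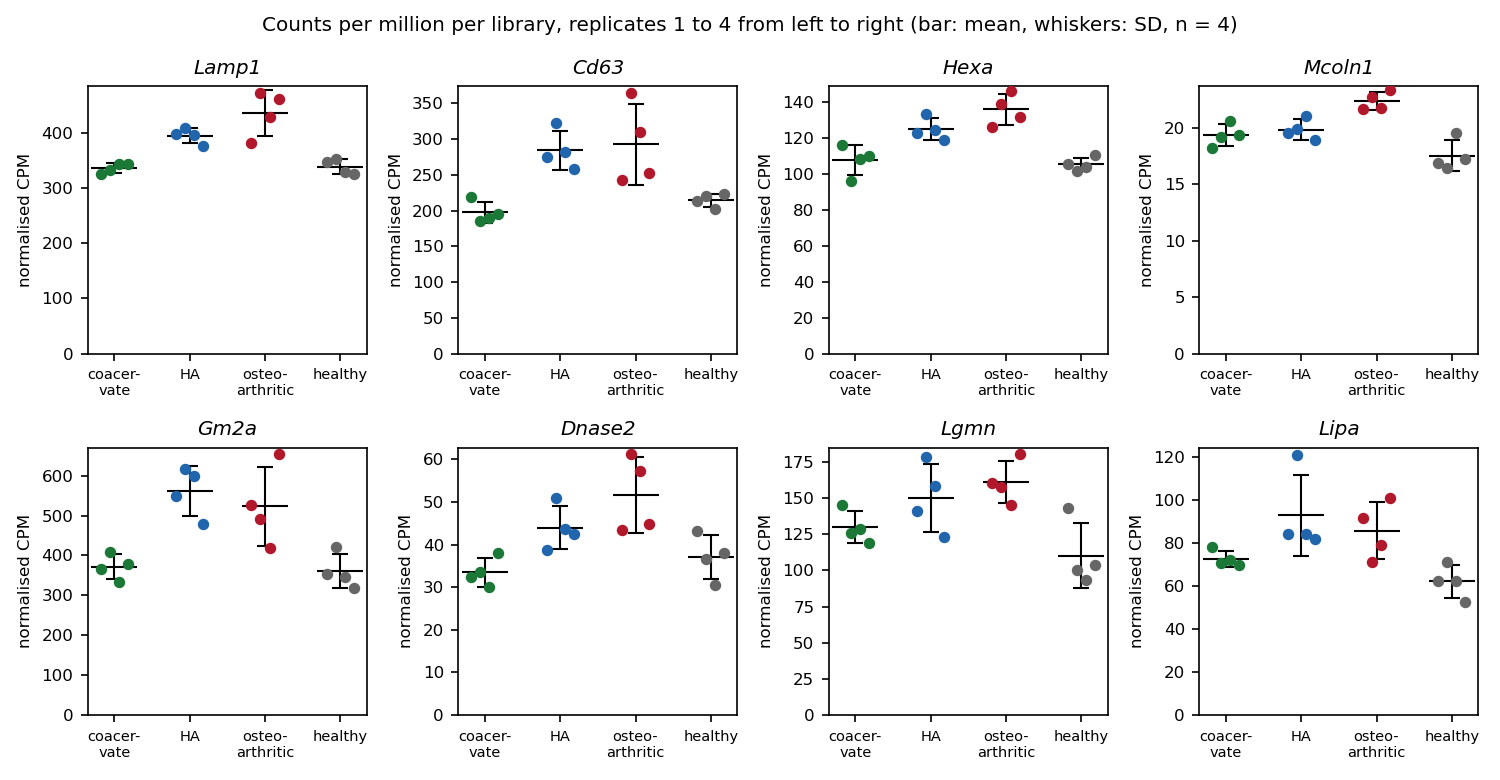
Normalised counts (CPM) of 8 lysosome genes in each library, by group, with the mean as a bar and the SD as whiskers (n = 4). For Lamp1, Cd63, Hexa, Mcoln1, Gm2a and Dnase2 every coacervate library lies below every osteoarthritic library, for example 326 to 344 CPM against 382 to 474 CPM for Lamp1. On deposited FPKM, 4 of the 98 lysosome genes were separate in this way.

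Coacervate-treated against osteoarthritic cartilage asks how the pathway differs once the coacervate, cells and drug are given. Relative to all genes, several enzymes and membrane proteins of the lysosome and the activator Gm2a had lower normalised counts in coacervate libraries. Log2 fold changes went down to -0.63 (Dnase2). The lysosome genes that passed the test were 0 of 98, against 21 of all genes (0.146%, of which 0.0209% were higher and 0.126% lower). An unadjusted p under 0.05 was reached by 28 genes on the lower side and 3 on the higher (31.6% together, against 21.8% of all genes, 12.8% lower and 9.05% higher). With limma on log2(FPKM + 1) it was reached by 15 (15.3%, against 18.9%), so the place above the share of all genes depended on the scale. The 4 coacervate libraries lay wholly below the 4 osteoarthritic ones for 14 genes (14.3%, against 3.13% of all genes) and wholly above for 0 (against 2.47%), while on deposited FPKM 4 were wholly below (4.08%, against 2.22%) and 0 above (against 2.27%). The median log2 fold change was -0.11, against -0.01 over all genes, but it was 0.01, against 0.09 over all genes, with limma on log2(FPKM + 1). On the main scale 73 of 98 genes were on the lower side and 25 above 0 (25.5%, against 48.8% of all genes), and on log2(FPKM + 1) 46 of 98 were.

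Cd63 had 219, 185, 189.6 and 195 CPM in the coacervate libraries, against 243, 365, 311 and 252 in osteoarthritic libraries. In CPM, every coacervate library was below every osteoarthritic one, and the log2 fold change of -0.57 ± 0.12 had the smallest p of any lysosome gene in this comparison (adjusted p = 0.081). Dnase2 had 32.4, 33.6, 29.9 and 38.0 CPM in the coacervate libraries, against 43.4, 61.2, 57.3 and 44.8 in osteoarthritic libraries, the largest log2 fold change on the lower side, at -0.63 ± 0.14 (adjusted p = 0.0812), without overlap. Lamp1, with 326, 332, 344 and 343 CPM in the coacervate libraries, against 382, 474, 430.0 and 462 in osteoarthritic libraries, was tightly grouped in coacervate libraries (-0.38 ± 0.09, adjusted p = 0.0912). Hexa had 116, 96.0, 108 and 110.0 CPM in the coacervate libraries, against 126, 139, 146 and 132 in osteoarthritic libraries (-0.34 ± 0.08, adjusted p = 0.0924), without overlap. Gm2a had 365, 409, 334 and 379 CPM in the coacervate libraries, against 526, 492, 419 and 654 in osteoarthritic libraries (-0.49 ± 0.14, adjusted p = 0.112), without overlap, though coacervate replicate 2 came close to osteoarthritic replicate 3. Mcoln1 was lower by a smaller amount (-0.21 ± 0.09, adjusted p = 0.192), and its groups were separate.

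Gusb, the beta-glucuronidase of glycosaminoglycan breakdown, had 135, 114, 110.0 and 142 CPM in the coacervate libraries, against 159, 166, 167 and 151 in osteoarthritic libraries (-0.36 ± 0.10, adjusted p = 0.112), and these did not overlap. Others whose libraries were wholly lower were the glycosidases Fuca1 (-0.50 ± 0.13) and Aga (-0.27 ± 0.09), the V-ATPase genes Atp6ap1 (-0.30 ± 0.08), Atp6v0c (-0.23 ± 0.11) and Atp6v0d1 (-0.21 ± 0.08), and Litaf (-0.32 ± 0.12), an endosomal membrane protein. The CLEAR core was in 4 of the 11 windows read for the 14 genes (36.4%, against 18.8% of the 85 read and 6.65% of all promoters). The longer palindrome was in 0 of the 11. On the higher side the smallest p were those of the adaptor subunits Ap4e1 (0.46 ± 0.17) and Ap1b1 (0.26 ± 0.11), the clathrin heavy chain Cltc (0.31 ± 0.14) and the V-ATPase subunit Atp6v0a1 (0.36 ± 0.18). Cltc had 604, 639, 590.0 and 576 CPM in the coacervate libraries, against 536, 360.4, 426 and 618 in osteoarthritic libraries, and the groups overlapped at osteoarthritic replicate 4, while osteoarthritic replicates 2 and 3 were far lower. Without those replicates the differences of all 4 were smaller by over 1.5 times, at 0.16 ± 0.13 for Ap4e1, 0.06 ± 0.09 for Ap1b1, 0.06 ± 0.10 for Cltc and 0.02 ± 0.13 for Atp6v0a1.

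With osteoarthritic replicates 2 and 3 left out, 84 of 98 genes were on the lower side, the median was -0.17, and 34 genes had an unadjusted p under 0.05 (34.7%, against 12.4% of all genes), still with 0 calls. In that fit Cd63 was at -0.33 ± 0.10, Dnase2 at -0.40 ± 0.14, Lamp1 at -0.32 ± 0.09 and Gm2a at -0.66 ± 0.13, while Clta, at -0.59 ± 0.20 with all libraries, was at -0.01 ± 0.11. Hexa was at -0.26 ± 0.08, Mcoln1 at -0.22 ± 0.10 and Gusb at -0.30 ± 0.11, and of the genes named by fold change alone Fuca1 was at -0.26 ± 0.10. Without osteoarthritic replicate 1 there were 19 calls, against 2054 of all genes (14.3%), and without osteoarthritic replicate 4 there were 14, against 1368 (9.54%). Without coacervate replicate 2 the unadjusted count was 18 (18.4%, against 14.6%) with 0 calls. DESeq2 called 11 lysosome genes, against 795 of all genes (5.55%), all 11 of them lower and led by Lamp1 (adjusted p = 7.9e-05).

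Cell type markers differed as well. Chondrocyte markers were on the lower side for 10 of 13 tested, 2 of them at an unadjusted p under 0.05 (median -0.34). Without osteoarthritic replicates 2 and 3 they were lower for 11 of 13, 6 of them at that threshold (median -0.69). Macrophage markers summed to 5319 to 7042 CPM in coacervate libraries, against 7021 to 12878 CPM in osteoarthritic ones, and 7 of 19 had an unadjusted p under 0.05, all lower (median -0.34, and -0.14 with 8 lower and 1 higher without osteoarthritic replicates 2 and 3). Neutrophil markers summed to 5282 to 7317 CPM in coacervate libraries and 6624 to 20431 CPM in osteoarthritic ones, and 8 of 10 were lower at that threshold, against 2 of 10 without those replicates (Ltf, of 11 listed, was at 0 in 4 libraries and not tested). Skeletal muscle markers summed to 5951 to 20694 CPM in coacervate libraries, against 3975 to 6132 CPM in osteoarthritic ones, and 7 of 8 were higher at it. Osteoclast markers overlapped, at 1129 to 2046 CPM in coacervate and 1389 to 1776 CPM in osteoarthritic libraries, with 2 of 10 lower and 1 higher at it, and 6 lower without those replicates. The part of these cells in the lysosome values was not tested.

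**Figure D4:**
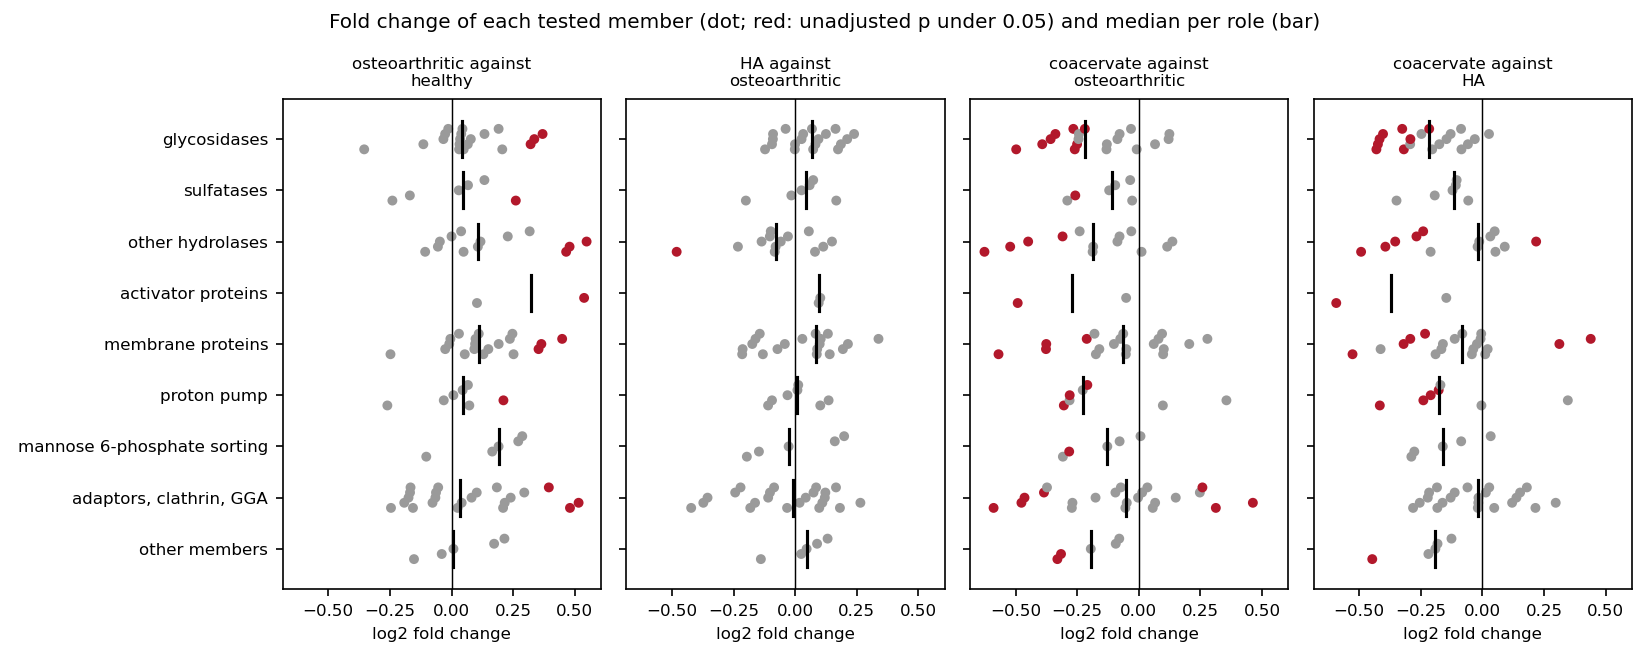
Log2 fold change of each of the 98 tested lysosome genes in 4 comparisons, by role; dots are genes, red dots have an unadjusted p under 0.05, and bars are role medians. In both coacervate panels the glycosidase median lies at -0.22, with 16 of 19 genes below 0 against osteoarthritic libraries and 18 of 19 against HA libraries.

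Coacervate against HA compares the coacervate with hyaluronic acid, each given with cells and drug. Lysosome genes lay lower with the coacervate than with HA, and more of them lacked overlap here than in any of the other 5 comparisons. None of the 98 passed edgeR's test, nor did any of all genes (0%), while DESeq2 called 325 of all genes (2.27%). An unadjusted p under 0.05 was reached by 23 on the lower side and 3 on the higher (26.5% together, against 10.4% of all genes, 5.23% lower and 5.13% higher). Coacervate libraries lay wholly below HA libraries for 21 genes (21.4%, against 5.36%) and wholly above for 3, Atp6v0a1, Cltc and Entpd4 (3.06%, against 4.35%), and on deposited FPKM these counts were 21 and 3 again (against 6.63% and 3.03% of all genes). The median log2 fold change was -0.15, against 0.00 over all genes, and 77 of 98 genes were lower, with 21 above 0 (21.4%, against 49.7%). This median was between -0.17 and -0.12 under every alternative tried.

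Gm2a had 365, 409, 334 and 379 CPM in the coacervate libraries, against 548, 618, 599 and 479 in HA libraries. The lowest HA library was above the highest coacervate library, and the log2 difference was -0.59 ± 0.14 (adjusted p = 0.138). Cd63 had 219, 185, 189.6 and 195 CPM in the coacervate libraries, against 275, 323, 282 and 258 in HA libraries (-0.53 ± 0.12, adjusted p = 0.139), and the groups did not overlap. Gla, the alpha-galactosidase that cleaves globosides, had 23.0, 18.5, 18.1 and 22.5 CPM in the coacervate libraries, against 27.8, 31.9, 25.4 and 25.1 in HA libraries (-0.42 ± 0.11, adjusted p = 0.176), also separate. Lamp1 had 326, 332, 344 and 343 CPM in the coacervate libraries, against 399, 409, 396 and 377 in HA libraries, with a smaller difference of -0.23 ± 0.09, and Lamp2, which takes part in chaperone-mediated autophagy, averaged 137 ± 7.85 CPM in coacervate and 171 ± 18.6 CPM in HA libraries (SD, n = 4 each; -0.32 ± 0.10). Tcirg1, the V-ATPase subunit with which osteoclasts acidify bone, averaged 111 ± 5.30 CPM in coacervate and 148 ± 21.1 CPM in HA libraries, without overlap (-0.42 ± 0.15). On the side higher with the coacervate, the smallest p were those of Abcb9, a lysosomal peptide transporter (0.44 ± 0.17), Slc11a2, an iron transporter (0.31 ± 0.13), of the nucleotidase Entpd4 (0.22 ± 0.09) and of Atp6v0a1 (0.35 ± 0.18).

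DESeq2 called 5 genes lower, among them Gm2a, Cd63, Gla and Litaf, and without osteoarthritic replicates 2 and 3, which enter this comparison only through the shared estimate of spread, edgeR called 4 lysosome genes, against 149 of all genes (1.04%), among the 4 Cd63, Gm2a and Fuca1 (Cd63 adjusted p = 0.0307). Macrophage markers summed to 5319 to 7042 CPM with the coacervate and 7753 to 9986 CPM with HA, with 7 of 19 lower and 1 higher at an unadjusted p under 0.05. Neutrophil markers summed to 5282 to 7317 CPM with the coacervate and 9224 to 10778 CPM with HA, with 6 of 10 lower. Muscle markers summed to 5951 to 20694 CPM with the coacervate and 4067 to 4793 CPM with HA, with 8 of 8 higher. Chondrocyte markers were on the lower side for 10 of 13, 1 of them at that threshold (median -0.38). The part of these cell types in the lysosome values was not tested.

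HA against osteoarthritic cartilage gave few differences. None of the 98 genes passed edgeR's test, nor did any gene (0%), and DESeq2 called 0 lysosome genes and 8 genes in all. An unadjusted p under 0.05 was reached by 1 gene, Dnase2b (1.02%, against 6.34% of all genes, 2.26% higher and 4.08% lower), another acid nuclease gene, with 12, 11.9, 14.3 and 12.9 CPM in the HA libraries, against 17.2, 21.4, 14.8 and 17.9 in osteoarthritic libraries. It was wholly lower with HA (-0.48 ± 0.15, adjusted p = 0.745), as were Mcoln1 (-0.17 ± 0.09) and Smpd1, so that 3 genes were wholly lower (3.06%, against 0.823% of all genes) and 0 wholly higher (against 1.08%). On deposited FPKM 1 was wholly higher (against 2.29% of all genes) and 0 wholly lower (against 0.328%). The median log2 fold change was 0.03, against -0.01 over all genes, with 54 genes above 0 (55.1%, against 47.8%), and 0.19, against 0.12, with limma on log2(FPKM + 1). The next smallest p on the lower side belonged to the clathrin light chain Cltb (-0.42 ± 0.21) and to Sumf1, which activates sulfatases (-0.20 ± 0.10). On the higher side the smallest p belonged to Ap3b1 (0.26 ± 0.13), Man2b1 (0.24 ± 0.15), the phagosomal metal transporter Slc11a1 (0.34 ± 0.21) and Gla (0.17 ± 0.11). When osteoarthritic replicates 2 and 3 were omitted, Dnase2b was at -0.46 ± 0.16, Mcoln1 at -0.18 ± 0.10 and Gla at 0.24 ± 0.14. In the same fit Sumf1 was at -0.09 ± 0.11, Slc11a1 at 0.10 ± 0.24 and Ap3b1 at 0.00 ± 0.08, each smaller by over 1.5 times, and Cltb at 0.11 ± 0.15 and Man2b1 at -0.01 ± 0.12 had turned sign. The median was then -0.05, against 0.00 over all genes, and 8 genes had an unadjusted p under 0.05 (8.16%, against 11.4% of all genes). Leaving out osteoarthritic replicate 1 or 4 raised the count of 1 to 15 and 11 (15.3 and 11.2%, against 19.3 and 16.7% of all genes), with 0 calls each, and it was 2 (2.04%, against 3.61 to 6.11% of all genes) without coacervate replicate 1, HA replicate 1, HA replicate 4, healthy replicate 2 or healthy replicate 3. Macrophage markers summed to 7753 to 9986 CPM with HA and 7021 to 12878 CPM in osteoarthritic libraries, and 0 of 19 had an unadjusted p under 0.05. Of 10 B cell markers, 5 were higher with HA at that threshold. Their part was not tested.

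Set against healthy cartilage, the 2 treatments gave these counts. With HA, 15 lysosome genes were higher and 1 lower at an unadjusted p under 0.05 (16.3%, against 8.25% of all genes, 4.42% higher and 3.84% lower), 0 passed the test against 23 of all genes (0.16%, of which 0.146% were higher and 0.0139% lower), and the median was 0.10 against 0.00, with 70 of 98 genes above 0 (71.4%, against 50.4%). HA libraries lay wholly above healthy ones for 11 genes (11.2%, against 5.08%) and below for 1, Dnase2b (1.02%, against 4.76%), and on deposited FPKM for 12 and 2 (against 4.97 and 4.12% of all genes). Macrophage markers summed to 7753 to 9986 CPM with HA and 5193 to 7388 CPM in healthy libraries, with 5 of 19 higher at an unadjusted p under 0.05 and 1, Trem2, that rose (adjusted p = 0.0158). All 9 fibroblast markers were on the higher side with HA, 6 at that threshold and 1 called (summed level 13195 to 20790 CPM with HA and 9781 to 15010 CPM in healthy libraries). All 8 skeletal muscle markers were on the lower side, 6 at that threshold and 5 without overlap (4067 to 4793 CPM with HA and 5865 to 9470 CPM in healthy libraries). The part of these cells was not tested. The smallest p were those of Gm2a (0.64 ± 0.14, adjusted p = 0.0882) and Lipa (0.58 ± 0.14, adjusted p = 0.131). Lipa had 84.3, 121, 84.3 and 82.2 CPM in the HA libraries, against 62.5, 71.4, 62.4 and 52.8 in healthy libraries, without overlap but with HA replicate 2 far above the other HA libraries. The count of 16 was 10 without HA replicate 2 (10.2%, against 6.05% of all genes), and 1 gene passed without osteoarthritic replicate 4, while without osteoarthritic replicates 2 and 3, which enter only through the shared spread, Gm2a and Cd63 passed. DESeq2 called Gm2a and Lipa. With the coacervate, 5 genes were lower and 0 higher at an unadjusted p under 0.05 (5.1%, against 3.85%, 1.99% higher and 1.86% lower), no gene of any kind passed edgeR's test (0%), DESeq2 called 0 lysosome genes and 15 genes in all, and the median was -0.03 against 0.00. Coacervate libraries lay wholly below healthy ones for 3 genes, Atp6ap1, Hyal1 and Tcirg1 (3.06%, against 1.91%), and wholly above for 0 (against 1.75%), and on deposited FPKM for 6 and 0 (against 2.09 and 1.41% of all genes). Osteoclast markers were on the lower side with the coacervate for 9 of 10, with 5 lower and 1 higher at an unadjusted p under 0.05 and 3 without overlap (median -0.37). They summed to 1129 to 2046 CPM with the coacervate and 1786 to 2512 CPM in healthy libraries, and their part in the values of Tcirg1, a subunit of the osteoclast pump, and of the others was not tested. The 5 lysosome genes lower at an unadjusted p under 0.05 were Atp6ap1 (-0.26 ± 0.08), Gusb (-0.31 ± 0.10), Dnase2b (-0.40 ± 0.15), Neu1 (-0.27 ± 0.12) and Atp6v1h (-0.27 ± 0.13). The count was 3 without coacervate replicate 2, coacervate replicate 3, HA replicate 1 or healthy replicate 2, each left out alone, and 9 without osteoarthritic replicates 2 and 3 (9.18%, against 7.33% of all genes). These comparisons share their healthy, treated or osteoarthritic libraries with the ones above and are not independent of them. Over the 4 groups, the coacervate group had the lowest mean for 43 of the 98 genes and the highest for 8, the HA group was highest for 41 and lowest for 12, the osteoarthritic group highest for 36 and lowest for 16, and the healthy group highest for 13 and lowest for 27.

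By role, most of the 19 glycosidases lay lower with the coacervate. Against osteoarthritic libraries 16 were on the lower side (12 on log2(FPKM + 1)), 8 of them at an unadjusted p under 0.05 and 0 higher, and against HA libraries 18 were lower on both scales, again 8 of them at that threshold (all genes, 12.8 and 5.23% lower). All 19 were lower against osteoarthritic libraries without osteoarthritic replicates 2 and 3, 9 of them at that threshold (all genes in that fit, 12.4% in either direction), and the median was -0.26 in place of -0.22. Their summed level was 1191 to 1275 CPM in coacervate libraries, 1342 to 1597 CPM in HA, 1280 to 1501 CPM in osteoarthritic and 1325 to 1397 CPM in healthy libraries. Every coacervate library was below every other library, though by little at osteoarthritic replicate 3. Gaa, the acid alpha-glucosidase of glycogen, averaged 57.8 ± 10.8 CPM in coacervate, 61.4 ± 13.8 in HA, 53.0 ± 16.1 in osteoarthritic and 54.3 ± 10.2 CPM in healthy libraries (SD, n = 4 each). Between coacervate and osteoarthritic libraries, Glb1, the beta-galactosidase, was at -0.13 ± 0.12 and Naglu, which acts on heparan sulfate, at -0.26 ± 0.12 (-0.28 ± 0.12 and -0.37 ± 0.13 without osteoarthritic replicates 2 and 3). Hyal1, an enzyme that cleaves hyaluronic acid itself, had 13.2, 13.7, 14.4 and 13.6 CPM in the coacervate libraries, 17.6, 12, 14.4 and 10.0 in HA libraries, 21.8, 8.11, 6.23 and 14.3 in osteoarthritic libraries, and 16.7, 15.0, 15.6 and 17.3 in healthy libraries. Osteoarthritic libraries spanned both the highest and the lowest of these values, and no comparison of Hyal1, Hyal2 or Hyal3 had an adjusted p under 0.2.

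The 6 sulfatase genes, 5 enzymes that strip sulfate from glycosaminoglycans or lipids and their activator Sumf1, were all on the lower side with the coacervate, with medians of -0.11 against osteoarthritic libraries and -0.11 against HA libraries. On log2(FPKM + 1) the first median was 0.03, with 2 genes lower, and the second -0.14. The first median was -0.38 without osteoarthritic replicates 2 and 3, again with all 6 lower. Which genes had an unadjusted p under 0.05 against osteoarthritic libraries depended on those replicates. With all libraries it was Sumf1 (16.7% of the 6, against 21.8% of all genes), at -0.26 ± 0.10 (adjusted p = 0.168), which was at -0.15 ± 0.11 without them. Without them it was 5 of the 6 (against 12.4% of all genes), among which were Arsg (-0.23 ± 0.08), Arsa (-0.39 ± 0.14), Arsb (-0.43 ± 0.17) and Galns (-0.54 ± 0.23). In either fit 0 passed the adjusted threshold. Galns, the keratan sulfate sulfatase lost in Morquio syndrome, averaged 27.8 ± 5.53 CPM in coacervate, 35.4 ± 8.48 in HA, 34.0 ± 7.65 in osteoarthritic and 32.4 ± 6.17 CPM in healthy libraries, and these overlapped. Arsb, the dermatan sulfate sulfatase, had 355, 189.5, 183 and 273 CPM in the osteoarthritic libraries, against 277, 299, 247 and 358 in healthy libraries, with osteoarthritic replicates 2 and 3 below and replicate 1 near the highest healthy library (-0.24 ± 0.20, and 0.09 ± 0.18 without replicates 2 and 3).

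Of the 7 tested V-ATPase genes, 3 were lower at an unadjusted p under 0.05 in coacervate against osteoarthritic libraries and 4 against HA libraries (all genes, 12.8 and 5.23% lower), with medians of -0.23 and -0.18 (-0.11 and -0.21 on log2(FPKM + 1)). The count of 3 was again 3 without osteoarthritic replicates 2 and 3 (all genes in that fit, 12.4% in either direction), and the first median was -0.15. Of the sphingolipid activators, Gm2a is described above and Psap averaged 1449.5 ± 23.9 CPM in coacervate, 1605 ± 138 CPM in HA, 1502 ± 161 CPM in osteoarthritic and 1399 ± 111 CPM in healthy libraries, with log2 fold changes of 0.10 ± 0.11 for osteoarthritic against healthy and -0.05 ± 0.11 for coacervate against osteoarthritic (0.20 ± 0.11 and -0.16 ± 0.11 without osteoarthritic replicates 2 and 3). The 22 tested adaptor, clathrin and GGA genes were on both sides for coacervate against osteoarthritic libraries (median -0.05, and 0.05 on log2(FPKM + 1)). There, 3 were higher and 4 lower at an unadjusted p under 0.05 (31.8% together, against 21.8% of all genes, 9.05% higher and 12.8% lower). For coacervate against HA it was 0 of 22 (against 10.4% of all genes). Against osteoarthritic libraries 0 of the 22 had such a p once replicates 2 and 3 were left out (median -0.02), against 12.4% of all genes. Of the 19 membrane proteins 12 were on the lower side in coacervate against osteoarthritic libraries (median -0.06, and 0.05 on log2(FPKM + 1)), 16 without osteoarthritic replicates 2 and 3 (median -0.22), and 15 in coacervate against HA libraries (median -0.08, and -0.10 on log2(FPKM + 1)). Laptm5 was at -0.29 ± 0.11 and Laptm4a at -0.16 ± 0.17 against HA, and Npc1, which exports cholesterol from the lysosome, was at 0.10 ± 0.24 against osteoarthritic libraries, and at -0.37 ± 0.13, with the sign turned, without replicates 2 and 3. M6pr was at -0.28 ± 0.11 in that comparison, and at -0.06 ± 0.08 without them. Gnptab, a subunit of the enzyme that makes the mannose 6-phosphate tag, was at 0.01 ± 0.19, and at -0.38 ± 0.11 without them.

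**Figure D5:**
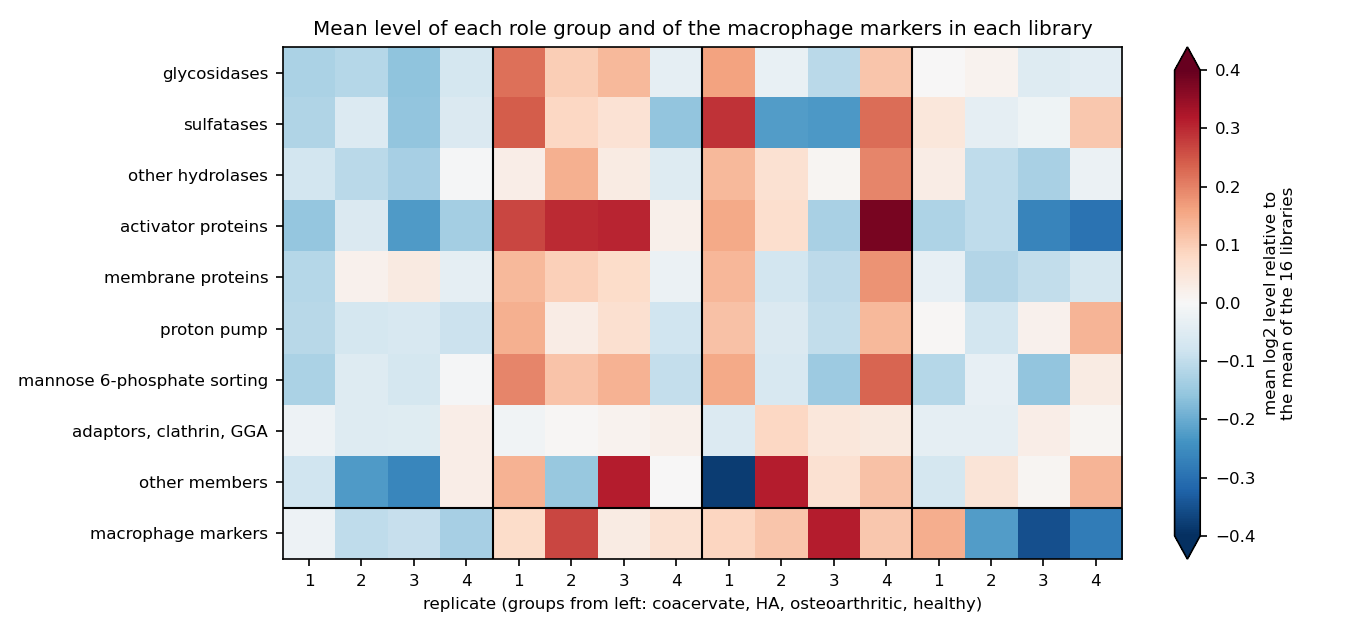
Mean log2 level of each role group of lysosome genes, and of the macrophage markers, in each library relative to the mean of the 16 libraries; columns are the coacervate, HA, osteoarthritic and healthy libraries, replicates 1 to 4 each. Glycosidases are below the mean in all 4 coacervate libraries, and sulfatases differ by sign between osteoarthritic replicates 1 and 4 (0.29 and 0.22) and replicates 2 and 3 (-0.22 and -0.23).

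Within the osteoarthritic group, the lysosome genes split with transcript length. Osteoarthritic replicates 2 and 3 were both below replicates 1 and 4 for 51 of 98 lysosome genes (52%, against 36.6% of all genes) and both above for 25 (25.5%, against 35.1%). The genes with lower values had a median length of 3.29 kb and those with higher values 1.93 kb, and over all genes the lengths were 3.88 and 1.70 kb. Igf2r, at 9.97 kb, had 197, 81.7, 88.2 and 253 CPM in the osteoarthritic libraries, against 111, 140.2, 135 and 122 in healthy libraries, so that the osteoarthritic libraries lay on both sides of the healthy ones. Its log2 ratio of replicates 2 and 3 to replicates 1 and 4 was -1.41, that of Hyal1 -1.33 and that of Npc1 -1.20. The clathrin light chains, with 1.37 and 1.22 kb, went the other way, with 0.99 for Clta and 0.93 for Cltb. Clta had 112, 254, 241 and 137 CPM in the osteoarthritic libraries, against 129, 132, 130.4 and 129.8 in healthy libraries. Osteoarthritic replicates 2 and 3 were far above the other 6 libraries, and replicates 1 and 4 lay on either side of the healthy ones. Lamp1, Hexa, Cd63 and Mcoln1 had all 4 osteoarthritic libraries above the healthy ones in CPM, though none passed the adjusted threshold. Of these, Cd63 and Hexa were higher in both replicates 2 and 3 than in replicates 1 and 4 (log2 ratios of 0.45 and 0.15). Lamp1 (0.10) and Mcoln1 (-0.02) did not separate these replicates. The part of length or of RNA quality in the comparisons was not tested.

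Of the 17 pathway genes outside the set, mainly cathepsins, 10 were lower and 1 higher at an unadjusted p under 0.05 in coacervate against osteoarthritic libraries (64.7%, against 21.8% of all genes). Ctsl (-0.77 ± 0.13) and Npc2 (-0.70 ± 0.13) fell, each with an adjusted p of 0.0497 (0.146% of all genes were called). Without osteoarthritic replicates 2 and 3 neither was called (Ctsl -0.65 ± 0.15, adjusted p = 0.121, and Npc2 -0.49 ± 0.12, adjusted p = 0.149), with 11 of the 17 lower and 1 higher at the unadjusted threshold (against 12.4% of all genes). A further list held V-ATPase genes without the pathway annotation, most of its soluble part, with the membrane genes Atp6ap2, Atp6v0e1 and Atp6v0e2. All 10 tested genes of this list were on the lower side in coacervate against osteoarthritic libraries. Of these, 7 had an unadjusted p under 0.05 (70%, against 21.8% of all genes), led by Atp6v1d (-0.68 ± 0.18), Atp6v1b2 (-0.36 ± 0.10) and Atp6v1c1 (-0.50 ± 0.14), and 0 passed the adjusted threshold. Without those replicates 8 of the 10 were lower, 2 of them at an unadjusted p under 0.05 (against 12.4% of all genes). Of 20 lysosome regulators, 7 were lower and 1 higher at that threshold (40%, against 21.8% of all genes), and 4 and 1 without those replicates (against 12.4%). The smallest p were those of Tmem192, a lysosomal membrane protein (-0.61 ± 0.16), Lamtor4 (-1.37 ± 0.38), part of the complex that anchors mTORC1 to lysosomes, and Rragc (-0.27 ± 0.08), one of its GTPases. Against healthy libraries, osteoarthritic ones had 6 of these regulators higher and 1 lower at that threshold (35%, against 17.8% of all genes). Autophagy genes showed 1 lower and 1 higher of 16 for coacervate against osteoarthritic libraries (12.5%, against 21.8% of all genes). They were Map1lc3b (-0.49 ± 0.16), whose protein coats autophagosomes, and Uvrag (0.22 ± 0.10), which were at -0.03 ± 0.08 and 0.10 ± 0.09 without those replicates. No gene of the further V-ATPase, regulator or autophagy lists had an adjusted p of at most 0.05.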

How the data were processed

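RNA-seq of rat knee cartilage was analysed from the deposited table, which holds gene counts and FPKM for the same 16 libraries. Per the labels' protocols, total RNA was selected with oligo(dT), and the libraries kept strand through dUTP and were read in pairs. Build rn6 and the tools HISAT2 2.2.1, StringTie 2.1.6, cutadapt 1.9, edgeR and DESeq2 are listed in the submitters' processing notes. The counts are whole-number read counts per gene and the FPKM values are scaled for length and depth by the authors, per the file headers. No value column lacked a sample. Groups came from the labels, 4 libraries each.

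From the counts, edgeR 4.0.16 (R 4.3.3) fitted 1 quasi-likelihood model with 4 group means and TMM scaling over 14337 genes that reached 1 FPKM in 4 or more libraries, and gave 6 comparisons with Benjamini-Hochberg adjustment over all of these genes. A gene was called at an adjusted p of at most 0.05. Levels in CPM are counts scaled to the TMM-normalised library size. The fit was tested on simulated data with known changes. Alternatives used DESeq2 1.42.0, limma 3.58.1 on log2(FPKM + 1) and log2(FPKM + 0.1), other scaling, filters, libraries and thresholds. Total counts per library were 48629180 to 50725189 (coacervate), 44902493 to 48985255 (HA), 44497935 to 48383793 (osteoarthritic) and 36988722 to 49342607 (healthy), and with 4 libraries per group the spread between libraries, more than counting, limits precision.

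The genes and gene lists were chosen with earlier results of these data known. Named genes were the 10 with the highest mean FPKM, a panel of well-known lysosomal genes whatever their p (27 of its 30 genes were in the set), any gene called, and the 4 with the smallest p in each direction in 4 comparisons (osteoarthritic against healthy, each treatment against osteoarthritic, coacervate against HA). Arsa, Arsg, Aga, Fuca1, Atp6ap1, Atp6v0d1, Atp6v1h, Litaf, Smpd1, Neu1, Hyal1, Hyal2, Hyal3, Napsa, Galc, Cln3 and Nagpa were named after their values were seen. Promoter sequences are those of RefSeq, GRCr8, matched by gene number. Some genes of the set count in the totals but are not reported by name here.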

Additional observations from a re-analysis of the deposited data

Results flagged for a closer look

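In 7 of 216 groups of 4 libraries examined (3.24%, where chance alone flags about 1 in 20), 1 library lay far from the other 3. Gga2 in osteoarthritic replicate 1 was at 67.3 CPM, with 55.3 to 57.1 CPM in the other osteoarthritic libraries. Gla in osteoarthritic replicate 4 was at 21.4 CPM, below the 25.2 to 25.7 CPM of the others. Glb1 in coacervate replicate 1 was at 93.1 CPM, above 71.4 to 73.4 CPM. Lipa in HA replicate 2 was at 121 CPM, above 82.2 to 84.3 CPM. Tcirg1 in healthy replicate 4 was at 156 CPM, above 119 to 121 CPM. The summed level of the glycosidases in healthy replicate 2 was 1397 CPM, above 1325 to 1335 CPM, and that of the sphingolipid activators in HA replicate 4 was 1892 CPM, below 2224 to 2281 CPM.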

How the results depend on the processing

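Counts below are lysosome genes. With an adjusted p of at most 0.1, calls were 5 (osteoarthritic against healthy), 5 (coacervate against osteoarthritic) and 1 (HA against healthy). The share of all genes at 0.1 is not given, so these counts are not set against it. With DESeq2 calls were 8, 11 and 2, and 5 for coacervate against HA (all genes, 2.94, 5.55, 1.1 and 2.27%). Fitting the 2 groups alone gave 2 calls for HA against healthy (all genes, 2.72%). Without osteoarthritic replicates 2 and 3, calls were 2 (osteoarthritic against healthy), 4 (coacervate against HA) and 2 (HA against healthy), against 1.14, 1.04 and 0.656% of all genes. Leaving out 1 library gave 0 to 10 calls for osteoarthritic against healthy, 0 to 19 for coacervate against osteoarthritic and 0 to 1 for HA against healthy. In the fits with the highest counts, 7.83, 14.3 and 0.237% of all genes were called.

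At an unadjusted p under 0.05, limma with pseudocounts of 1 and 0.1 gave 8 and 7 genes for osteoarthritic against healthy (8.16 and 7.14%, against 16.3% of all genes with each). It gave 4 and 2 for HA against osteoarthritic (4.08 and 2.04%, against 7.51 and 7.34%). For coacervate against osteoarthritic it gave 15 and 14 (15.3 and 14.3%, against 18.9 and 18.8%). For HA against osteoarthritic, edgeR's filterByExpr gave 2 and DESeq2 5 (1.98 and 5.1%, against 5.94 and 8.04% of all genes). The 2 groups alone gave 16 for coacervate against osteoarthritic (16.3%, against 10.9%) and 14 for coacervate against healthy (14.3%, against 6.95%). Omitting osteoarthritic replicates 2 and 3 gave 8 for HA against osteoarthritic (8.16%, against 11.4%), 27 for HA against healthy (27.6%, against 12.9%) and 9 for coacervate against healthy (9.18%, against 7.33%). Leaving out 1 library gave 12 to 27 (osteoarthritic against healthy), 1 to 15 (HA against osteoarthritic), 18 to 37 (coacervate against osteoarthritic), 18 to 29 (coacervate against HA), 10 to 19 (HA against healthy) and 3 to 6 (coacervate against healthy). The highest counts were 27.6, 15.3, 37.8, 29.6, 19.4 and 6.12%. In the same fits all genes had 30.2, 19.3, 34.7, 12, 7.97 to 9.33 and 4.48 to 4.7%.

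Medians with limma, at pseudocounts of 1 and 0.1, were -0.061 and -0.076 for osteoarthritic against healthy, 0.19 and 0.20 for HA against osteoarthritic, and 0.011 and 0.015 for coacervate against osteoarthritic. Leaving out osteoarthritic replicates 2 and 3 gave 0.13, -0.048 and -0.17. Leaving out 1 library gave 0.055 to 0.12, -0.029 to 0.054 and -0.17 to -0.10 for these, -0.16 to -0.12 for coacervate against HA, 0.058 to 0.12 for HA against healthy and -0.046 to -0.019 for coacervate against healthy. Without osteoarthritic replicates 2 and 3, Ap3b1 was at 0.067 for osteoarthritic against healthy, and Man2b1 at -0.0091 and Cltb at 0.11 for HA against osteoarthritic. The cause was not tested. Of 800 such values of single genes, 767 kept their direction and their side of the threshold, 30 passed it and 3 reversed.

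Same-numbered libraries correlated at -0.386 to 0.211 over 24 pairs, with 4 over 0.1, so the numbers do not pair the libraries. With the replicate number as a block, 0 lysosome genes were called in each of the 6 comparisons and 14, 1, 24, 23, 14 and 4 had an unadjusted p under 0.05 (osteoarthritic against healthy, HA against osteoarthritic, coacervate against osteoarthritic, coacervate against HA, HA against healthy, coacervate against healthy). These were 14.3, 1.02, 24.5, 23.5, 14.3 and 4.08%, against 14.6, 4.48, 18, 9.33, 7.25 and 3.15% of all genes.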
